A study of Arabidopsis thaliana with 18 samples.

Results

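This comparison sets sav1-1 seedlings against wild type seedlings of the Col-0 ecotype after 1 h of simulated shade. Its members are the 6 arrays titled sav1-1-SH and Col-0-SH, replicates 1 to 3 of each, out of 18 arrays in the series. Total RNA came from whole seedlings of Arabidopsis thaliana that were 7 days old and had been kept at 22 °C on Murashige Skoog medium under continuous simulated white light, composed of red at 13 and blue at 1.23 µmol m-2 s-1. Shade was simulated by adding far-red at 20.2 in the same unit for 1 h, so that red over far-red (R:FR) came to 0.7. The sav1-1 mutant is represented by a single allele. Arrays of both genotypes kept in white light (Wc, 3 each) were set beside these, and the sav3-2 mutant, which carries a lesion in an auxin synthesis gene, made up the remaining 6 arrays. No source used here names the gene that is mutated in sav1-1, so the labels could not be checked by its level.

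Plants read a low R:FR as the presence of neighbours. Phytochrome photoreceptors that are held active in white light lose activity, PIF transcription factors then switch on target genes, and auxin made in the cotyledons and leaves moves to the stem and promotes its elongation. Among the genes known to rise early are those for Aux/IAA repressors, for homeodomain leucine zipper factors such as HAT2, and for GH3 enzymes, which join auxin to amino acids and so take it out of use. The sav mutants are named for their reduced shade avoidance, and the comparison asks how the transcripts of sav1-1 stand against those of the wild type once the shade signal has been given.

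After 1 h of low R:FR a small set of genes passed the test between the mutant and Col-0. GH3.3, the stress-linked zinc finger gene STZ and a peroxidase gene, AT3G49960, were higher in sav1-1, by 2.21, 2.63 and 2.68 times. The late embryogenesis abundant (LEA) protein genes AT3G02480 and LEA18 were lower, by 2.94 and 1.80 times, as were genes for a berberine bridge enzyme-like oxidase (AT5G44440), an acid phosphatase-like protein (AT4G29270) and a GDSL lipase (AT4G18970). In all, limma called 35 of 17125 probe sets at an adjusted p under 0.05 (0.204% of those tested), 17 higher and 18 lower in sav1-1. At an unadjusted p under 0.05 there were 1397, so the small number of calls does not show that the other genes were equal. Of these 35 probe sets 20 name 1 gene, 7 higher and 13 lower, and the other 15 carry no gene name here. With 16 added to each intensity before the log, 14 of the 35 reached 2-fold, 8 of them higher and 6 lower. This addition understates the folds of dim genes, also among those given above. The arrays of the groups did not overlap for any of the 35, against 14.3% of all probe sets tested, a feature that the call itself nearly fixes. On the values as deposited, with no normalization between arrays, the split was 38 higher and 8 lower, with the median of all differences at 0.22.

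The number of calls depended on the model and on few arrays. With the replicate number as a block 156 probe sets were called (0.911% of those tested), 78 in each direction, and with array weights 94, and both sets held all 35. The labels state independent biological replicates and no block, so the fit without the block is the one reported, in both lights. The replicate numbers did not meet the criterion for pairing these 6 arrays. Without the block the number of calls was 35 with all arrays. Leaving out Col-0 replicates 1, 2 or 3 of the low R:FR group gave 15, 7 and 61. Leaving out sav1-1 replicates 1, 2 or 3 of that light gave 7, 12 and 10. Of the 20 calls on named genes, 5, 3, 14, 3, 7 and 4 were kept in the same order of arrays. Each of the 20 kept its direction in each of these fits. Only GH3.3 and AT4G14100 among the named genes, with 3 unnamed probe sets, were called in all 6 of them.

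**Figure D1:**
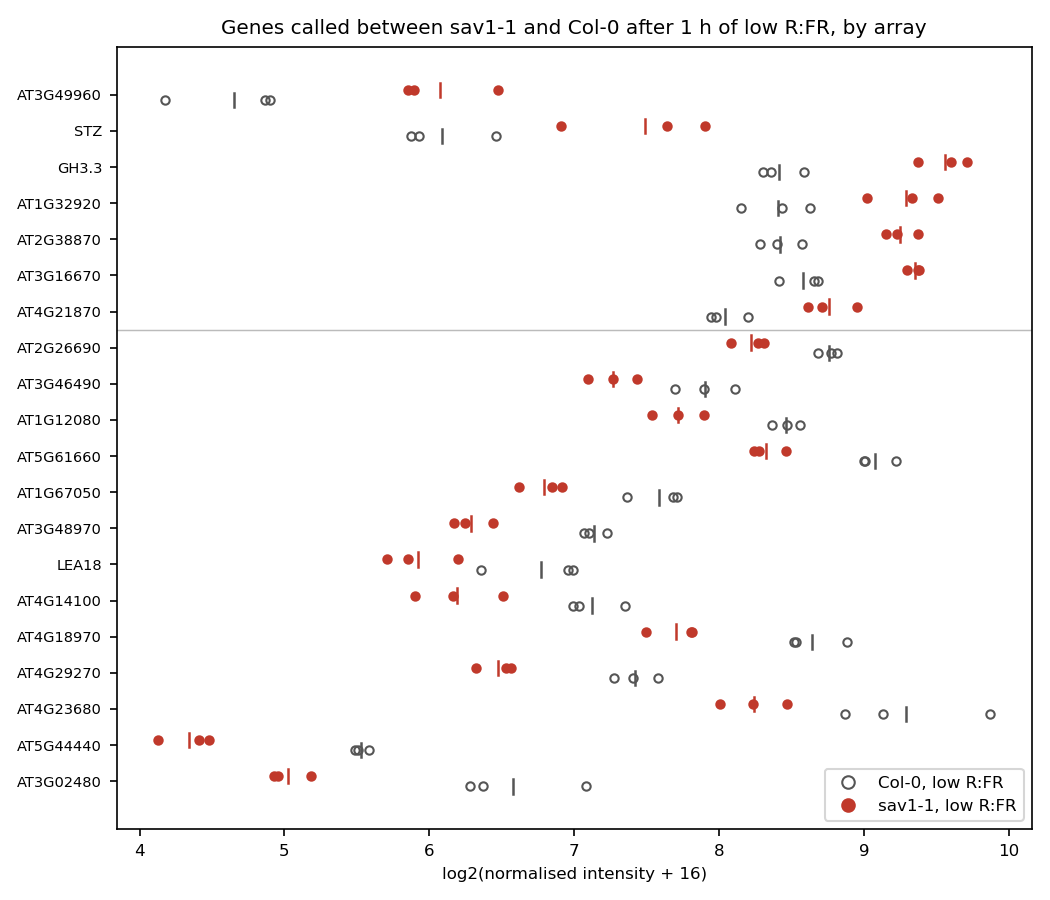
Level of the 20 named genes called between the genotypes, on each of the 6 arrays after low R:FR. The x axis is log2(normalised intensity + 16), open grey circles are Col-0 arrays, filled red circles are sav1-1 arrays and vertical ticks are group means (n = 3). The 7 genes above the grey line are higher in sav1-1 and the 13 below it are lower, ordered by the size of the difference, and no gene has overlapping groups.

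GH3.3 had the clearest difference among the genes that were higher. All levels here are log2 of the quantile normalised intensity plus 16, so that the scale ends at 4. The 3 Col-0 arrays after low R:FR stood at 8.59, 8.36 and 8.30 and the 3 sav1-1 arrays at 9.71, 9.38 and 9.60. The lowest mutant array was thus well above the highest wild type array, and the difference was 1.15 (SE 0.14, limma adjusted p = 0.000373), between 1.07 and 1.24 in the 6 fits that left out 1 array. Without the arrays numbered 2 of all groups GH3.3 was not called, nor was any other of the 20 named genes. In white light the arrays of the genotypes were separate as well, at 6.75, 6.61 and 6.58 in Col-0 and at 7.27, 7.04 and 6.82 in sav1-1, but that difference of 0.40 did not pass (adjusted p = 0.499).

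STZ, also called ZAT10, encodes a zinc finger repressor known to be induced by salt, cold and drought. Its Col-0 arrays read 5.93, 5.87 and 6.46 and its sav1-1 arrays 7.64, 6.91 and 7.90, a difference of 1.40 (SE 0.22, limma adjusted p = 0.00774). The call was lost without Col-0 replicate 2 and without sav1-1 replicates 1 or 3, where the difference stayed at 1.19 or more. AT3G49960, a class III peroxidase gene, was dim, with Col-0 arrays at 4.18, 4.90 and 4.87 close to the end of the scale and sav1-1 arrays at 5.90, 6.48 and 5.85. Its difference of 1.42 (SE 0.26, adjusted p = 0.0184) rose to 2.58 with a pseudocount of 1, where it was not called. Leaving out any of the 6 arrays other than Col-0 replicate 3 lost the call, at 1.19 to 1.55.

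The other named genes that were higher in sav1-1 differed less. AT2G38870, a gene for a potato type I protease inhibitor, stood at 8.28, 8.40 and 8.57 in Col-0 and at 9.15, 9.37 and 9.23 in sav1-1 (0.83, SE 0.16). AT4G21870, a gene for a small heat shock-like protein, stood at 7.94, 7.98 and 8.20 against 8.71, 8.95 and 8.61 (0.72, SE 0.12). In both genes the mutant arrays lay within a narrow band above the wild type. AT1G32920 differed by 0.88 (SE 0.16) and AT3G16670, a gene of the pollen Ole e 1 family, by 0.77 (SE 0.16). The adjusted p of these 4 lay at 0.0337, 0.00921, 0.02 and 0.044, and 5, 4, 4 and 6 of the 6 single-array omissions ended their calls.

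Of the 13 named genes that were lower, AT3G02480, a gene for an LEA family protein, had the largest difference. The Col-0 arrays stood at 6.28, 6.37 and 7.08 and the sav1-1 arrays at 4.96, 4.93 and 5.18, a difference of -1.55 (SE 0.32, limma adjusted p = 0.044). The mutant was low on all 3 arrays, while Col-0 replicate 3 stood above the other two; each fit without 1 array lost the call, at values from -1.70 to -1.30. LEA18, an LEA gene of another group, read 6.99, 6.96 and 6.36 in Col-0 and 5.71, 6.20 and 5.85 in sav1-1 (-0.85, SE 0.17, adjusted p = 0.0337). Here Col-0 replicate 3 was the lowest of its group and came close to the highest mutant array. Without Col-0 replicates 1 or 2, or sav1-1 replicates 1 or 3, LEA18 was not called.

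AT4G14100 was the only lower gene with a name that was called in all 6 fits without 1 array. It was not called without normalization between arrays, or without the arrays numbered 1 or 2 of all groups. Its Col-0 arrays read 7.03, 7.35 and 6.99 and its sav1-1 arrays 5.90, 6.16 and 6.51, and the difference of -0.94 (SE 0.14, limma adjusted p = 0.00352) lay between -1.09 and -0.79 in the fits without 1 array. AT5G44440, the berberine bridge enzyme-like gene, had tight wild type arrays at 5.51, 5.49 and 5.58 and mutant arrays at 4.13, 4.41 and 4.48, near the end of the scale. Its difference of -1.19 (SE 0.20, adjusted p = 0.00921) is thus on values with little room below them and was -2.68 with a pseudocount of 1, where it was not called. The call was lost without Col-0 replicates 1 or 2 and without sav1-1 replicate 1.

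Several lower genes encode enzymes or stress-linked proteins. AT4G23680, which belongs to the Bet v 1-like major latex protein family, stood at 8.87, 9.13 and 9.87 in Col-0 and at 8.01, 8.23 and 8.47 in sav1-1 (-1.05, SE 0.21, limma adjusted p = 0.0398). The acid phosphatase-like gene AT4G29270 stood at 7.41, 7.27 and 7.58 against 6.53, 6.56 and 6.32 (-0.95, SE 0.17, adjusted p = 0.0184). The GDSL lipase gene AT4G18970 stood at 8.88, 8.51 and 8.53 against 7.80, 7.81 and 7.49 (-0.94, SE 0.17, adjusted p = 0.0184). Single-array omissions ended these 3 calls in 5, 6 and 5 cases of 6, with differences that stayed at -0.76 or below. In the latter pair of genes every mutant array was lower than every wild type array by more than the range of either group.

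The remaining lower genes differed by between -0.85 and -0.54. They were AT3G48970 (-0.85), AT1G67050 (-0.79), AT5G61660 (-0.75), AT1G12080 (-0.74), AT3G46490 (-0.63), a 2-oxoglutarate dioxygenase family gene, and AT2G26690 (-0.54), which encodes NPF6.2 of the nitrate and peptide transporter family. Single-array omissions ended these calls in 4, 5, 2, 6, 5 and 6 cases of 6, in that order. AT1G67050 stood at 7.71, 7.68 and 7.37 in Col-0 and at 6.62, 6.92 and 6.85 in sav1-1. In white light its arrays overlapped, at 6.38, 6.72 and 6.84 in Col-0 and at 6.55, 6.18 and 6.41 in sav1-1.

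Among unnamed probe sets the largest differences were those of 255177_at, higher by 1.70 (SE 0.27, limma adjusted p = 0.00736), and 262128_at, lower, at -1.69 (SE 0.20, adjusted p = 0.000373). The second read 6.19, 6.12 and 6.73 in Col-0 and 4.53, 4.77 and 4.64 in sav1-1, and it was called in all 6 fits that left out 1 array. Just short of the threshold lay AT5G44680 at -0.65 (adjusted p = 0.0509) and AT4G27652 at 0.94 (adjusted p = 0.0528).

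The white light arrays addressed whether the genotypes differed in the same genes without shade. These are other arrays than the ones that gave the calls, although the labels do not say whether seedlings of both lights were grown together. Same-numbered arrays of the lights deviated from their group means together in sav1-1, with r of 0.187, 0.108 and 0.272, and in Col-0 with r of 0.171, 0.0714 and 0.290. The lights are thus not fully independent, and the part of this in the shared directions was not tested. In white light all 35 probe sets differed in the same direction as after low R:FR, where 60.6% of all 17125 did. Turned to the direction of the call, the differences in white light had a median of 0.73 and ran from 0.23 to 1.24, and the median size after low R:FR was 0.94. For 30 of the 35 the white light arrays did not overlap in that direction (12.0% of all probe sets did not overlap in either direction). The count of 35 with the same direction was the same in every alternative setting that tested all of them, and 31 of 31 with the stricter filter on dim probe sets. Because the probe sets were chosen on the low R:FR arrays, the size in that light is favoured and the sizes in both lights cannot be set against each other.

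By the test, limma called 16 probe sets between sav1-1 and Col-0 in white light, 5 higher and 11 lower (0.0934% of those tested). The replicate numbers met the criterion for pairing these arrays, which comes from the data and not from the labels. The fit reported has no block here either. With the number as a block the calls were 28 higher and 64 lower (0.537% of those tested). Of the 16, 6 were also called after low R:FR, all in the same direction, which is 37.5% of the white light list and 17.1% of the low R:FR list. Named genes among these 6 were AT4G14100 (-1.02 in white light, adjusted p = 0.00133), LEA18 (-0.99, adjusted p = 0.0152), AT1G12080 (-0.88, adjusted p = 0.0152) and AT4G21870 (0.73, adjusted p = 0.0138). AT4G14100 stood at 7.08, 7.08 and 7.09 in Col-0 in white light and at 6.15, 6.06 and 6.01 in sav1-1, with no overlap. AT4G27280, a gene for a calcium-binding EF-hand protein, was called in white light at 1.37 (adjusted p = 0.00133) and stood at 0.75 after low R:FR, which did not pass (adjusted p = 0.0839). The count of 16 in white light was 5, 8 and 45 without Col-0 replicates 1, 2 and 3 of the white light group. Without sav1-1 replicates 1, 2 and 3 of that light it was 11, 8 and 5.

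**Figure D2:**
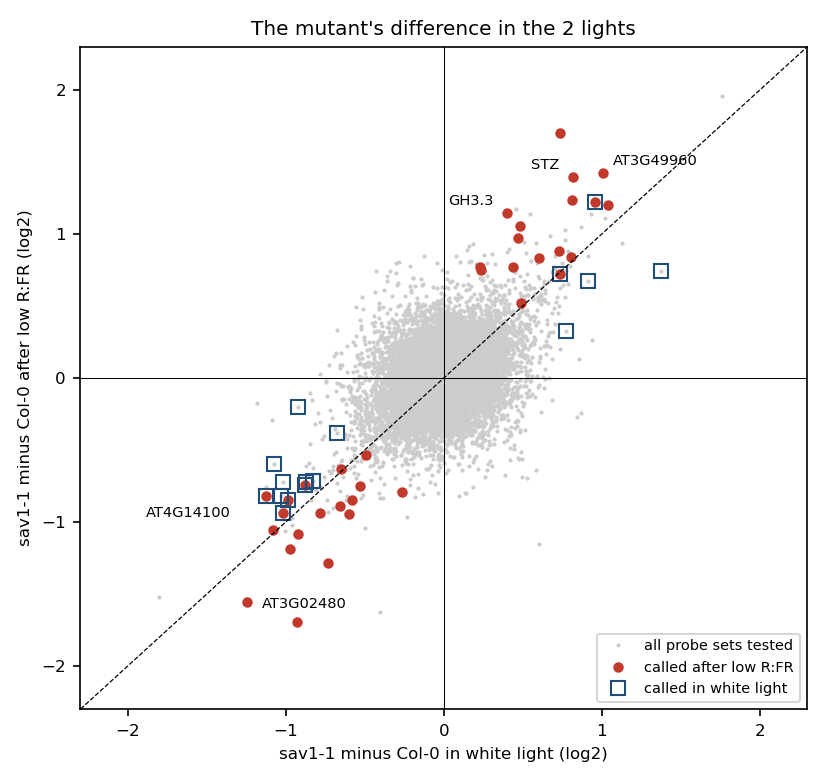
Difference between sav1-1 and Col-0 in white light (x axis) and after low R:FR (y axis), both on the log2 scale, for each of the 17125 probe sets tested (grey). Red circles are the 35 called after low R:FR, blue squares the 16 called in white light, and the dashed line marks equal differences. All red circles lie in the quadrants where the sign is the same in both lights.

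Whether a difference grew or shrank under shade was tested directly, as the response of sav1-1 to low R:FR minus that of Col-0. Limma called 0 probe sets (0% of those tested), with 431 at an unadjusted p under 0.05, and the lowest adjusted p was 0.99993. For GH3.3 this change of response was 0.75 (SE 0.20) and for STZ 0.58 (SE 0.31). For SAUR10 (AT2G18010) it went the other way, at -1.06 (SE 0.28). None of these passed. So a larger difference after low R:FR than in white light was not shown for any gene at this number of arrays. Without the arrays numbered 3 of all groups 2 probe sets were called.

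Group means give the course of single genes. GH3.3 was at 8.42 ± 0.15 (SD, n = 3) in Col-0 and at 9.56 ± 0.17 in sav1-1 after low R:FR, and both genotypes had far lower levels in white light. STZ had about the same level in Col-0 in both lights and was at 7.05, 6.65 and 6.97 in sav1-1 in white light. LEA18 and AT4G14100 kept to 1 level per genotype whichever the light.

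**Figure D3:**
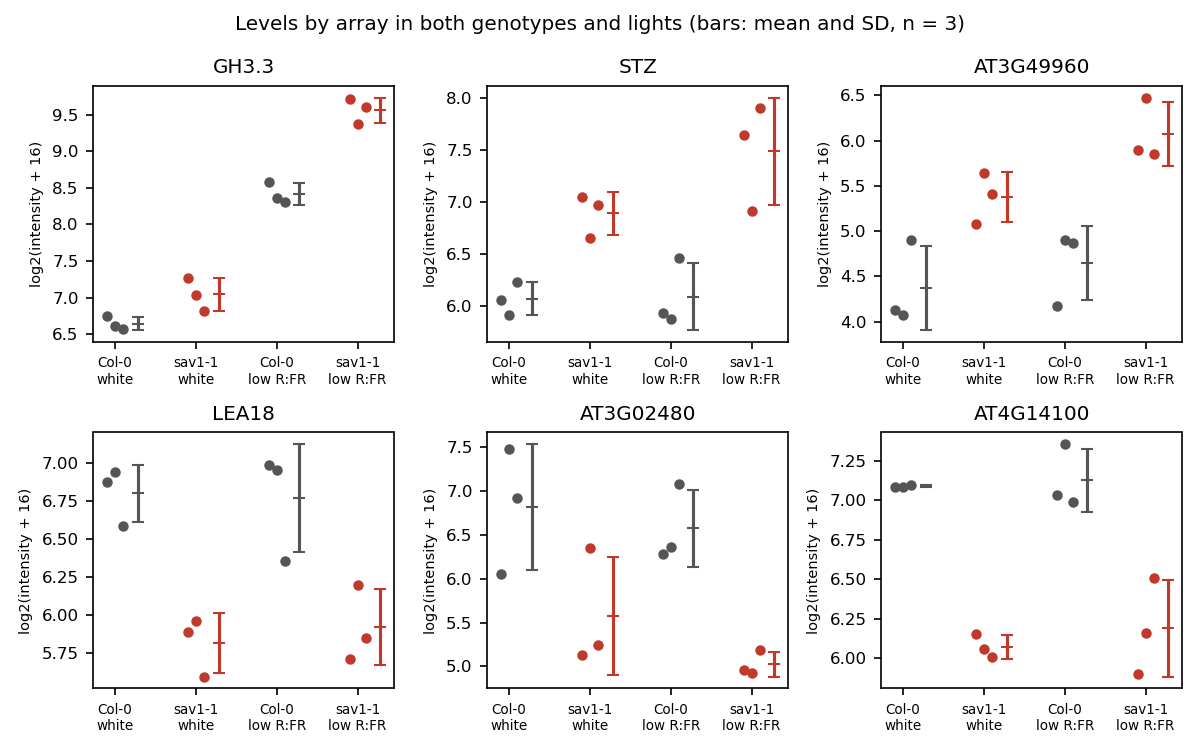
Level of 6 of the called genes on each array, as log2(normalised intensity + 16), for Col-0 (grey) and sav1-1 (red) in white light and after low R:FR. Points are arrays, and bars are the mean and SD of 3 arrays. GH3.3 is high after low R:FR in both genotypes and highest in sav1-1, while LEA18 and AT4G14100 are lower in sav1-1 in either light.

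Of the 5 genes used to check the light treatment GH3.3 was called, as described above, and the other 4 were not. IAA29, an Aux/IAA repressor gene, read 10.22, 9.95 and 9.84 in Col-0 and 10.02, 9.49 and 9.77 in sav1-1, against 7.70 or less on the white light arrays of either genotype. HAT2 read 10.31, 10.10 and 10.20 in Col-0 and 10.07, 10.07 and 9.83 in sav1-1, a difference of -0.21 (SE 0.13, limma adjusted p = 0.744). The mutant arrays of HAT2 were just below the wild type arrays, and those of IAA29 overlapped them. YUC2, a flavin monooxygenase gene of auxin synthesis, differed by 0.13 (SE 0.12, adjusted p = 0.87) and XTH33, a cell wall xyloglucan enzyme gene, by -0.11 (SE 0.19, adjusted p = 0.932). None of these 4 differences passed, which does not show that the levels were equal.

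A wider set of shade genes was taken from the response of sav3-2, so it holds only genes that still responded in that auxin synthesis mutant. GH3.3 and XTH33 were called higher by low R:FR in Col-0, by 1.77 and 1.01 on the log2 scale, and are not in it. The medians below do not cover such genes. The sav3-2 arrays enter neither group mean compared here, but they share the normalization and the estimate of the spread. Over the 108 probe sets called higher by low R:FR in sav3-2, the median difference between sav1-1 and Col-0 after low R:FR was 0.03 on the log2 scale, beside 0.00405 over all probe sets, and 57 were above 0. One gene of these, AT1G32920, was called (higher, as were 0.0993% of all probe sets). Over the 30 called lower in sav3-2 the median was -0.17, with 25 below 0, and 1 was called lower, the unnamed 247252_at (-0.89). Over all probe sets 49.1% were below 0 and 0.105% were called lower. Without normalization between arrays these medians were 0.27 and 0.06, beside 0.22 over all probe sets.

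Few of the genes on the lists drawn up for this tissue and treatment are named by a kept probe set. Of 45 lists 18 had at least 4 measured members, and the brassinosteroid synthesis, auxin response factor, seed storage and flower marker lists had none. In these lists 0.105% is the share of all probe sets called lower and 0.0993% that called higher. The list that lay furthest from 0 was that of cold and drought stress genes, where 9 of 10 measured members were below 0 in sav1-1 and the median was -0.52, against 49.1% of all probe sets below 0. Only LEA18 among them was called, while with the replicate number as a block COR15A, COR47, LEA4-5 and AtLEA4-1 passed as well. The arrays did not overlap, with the mutant lower, for 5 of the 10, against 7.24% of all probe sets. With the mutant higher this held for 1, AT2G46140 (0.31), against 7.08% of all probe sets.

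Among the members of that list that did not pass without the block, COR15A, which encodes a chloroplast protein induced by cold, stood at 7.65, 6.14 and 6.62 in Col-0 and at 5.59, 5.21 and 5.05 in sav1-1 (-1.52, SE 0.42, limma adjusted p = 0.21). Col-0 replicate 1 was far above the other two, and it was so in white light too, at 8.66 against 6.19 and 6.87. LEA4-5 stood at 5.75, 5.66 and 5.96 against 4.17, 4.57 and 5.11 (-1.17, SE 0.29, adjusted p = 0.102). The dehydrin gene COR47 differed by -0.46 (SE 0.13, adjusted p = 0.19), and AtLEA4-1 by -0.82 (SE 0.20, adjusted p = 0.102). In white light the list's median was -0.47, again with 9 of 10 members below 0. AtLEA4-1 was called lower in that light without the block (-1.03, limma adjusted p = 0.0466), as was LEA18. Most of these genes were lower than Col-0 in sav3-2 too, as given below.

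Of 5 measured GH3 genes 1 was called, GH3.3. WES1, also known as GH3.5, stood at 9.37, 9.07 and 9.03 in Col-0 and at 9.81, 9.65 and 9.79 in sav1-1, a difference of 0.59 (SE 0.14, limma adjusted p = 0.0788) that passed only with the block or array weights. GH3.17, GH3.9 and GH3.1 stood at 0.00, 0.07 and -0.15. The list median was 0.07, and it was -0.07 without sav1-1 replicate 1. No member of 4 measured Aux/IAA genes was called, and they lay between -0.24 and 0.16.

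Genes of cell wall loosening did not move one way. Of 23 measured expansin and XTH genes none was called, 13 were below 0 and 10 above, and the median was -0.11. EXPA8 stood at 10.34, 10.12 and 9.89 in Col-0 and at 9.38, 9.30 and 9.12 in sav1-1 (-0.85, SE 0.23, limma adjusted p = 0.189). EXLB1 was at -0.86 (SE 0.26, adjusted p = 0.256), while EXLA1 was at 0.74 (SE 0.24, adjusted p = 0.296) with overlapping arrays. These 3 passed with the block. Of 7 tubulin genes none was called and 5 were below 0, with a median of -0.21. The nitrate and peptide transporter list had 1 of 8 called, AT2G26690, and a median of -0.14. Without normalization between arrays the medians of these 3 lists were above 0, at 0.12, 0.07 and 0.04, all still below the median of all probe sets there.

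SAUR10 (AT2G18010), an auxin-induced gene of the SAUR family, stood at 6.19, 5.97 and 6.05 in Col-0 and at 5.22, 5.57 and 5.40 in sav1-1. The difference of -0.67 (SE 0.20, limma adjusted p = 0.254) did not pass, although the arrays did not overlap. In white light the mutant stood at 0.39 above Col-0 instead, on values near the end of the scale. SAUR10 was thus higher after low R:FR than in white light by 1.81 in Col-0 and by 0.75 in sav1-1. That change of response did not pass.

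The photosynthesis list served to check the tissue. LHCB4.1, a light-harvesting protein gene, lay between 12.85 and 13.08 on the 6 arrays, and RCA, which encodes Rubisco activase, between 12.84 and 13.05, so green tissue was present on each. EXPA7 and EXPA18, expansin genes known from root hairs, lay between 5.64 and 6.32 and between 5.85 and 6.33. EXPA7 stood at 0.40 (adjusted p = 0.584) and EXPA18 at 0.19 (adjusted p = 0.809) in sav1-1 against Col-0, beside the higher peroxidase gene AT3G49960; the part of root content in that difference was not tested. No photosynthesis gene of 28 measured was called, and 19 were below 0, against 49.1% of all probe sets. The arrays did not overlap, with the mutant lower, for 9 of the 28, against 7.24% of all probe sets. With the mutant higher this held for 0. These 9 are all chloroplast-encoded. In white light 18 of the 28 were above 0. The chloroplast-encoded psbB had the lowest difference of the list, at -1.15 (SE 0.53, limma adjusted p = 0.583). It was called when only the arrays of both groups were fitted, and without the arrays numbered 3. The ribosomal protein list, chloroplast-encoded except for AT1G77750, had a median of -0.02 over 16 measured genes. There the arrays were separate only for rps16, lower in the mutant, and AT1G77750, higher. In whole seedlings fewer cells of a type and less RNA per cell cannot be told apart.

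**Figure D4:**
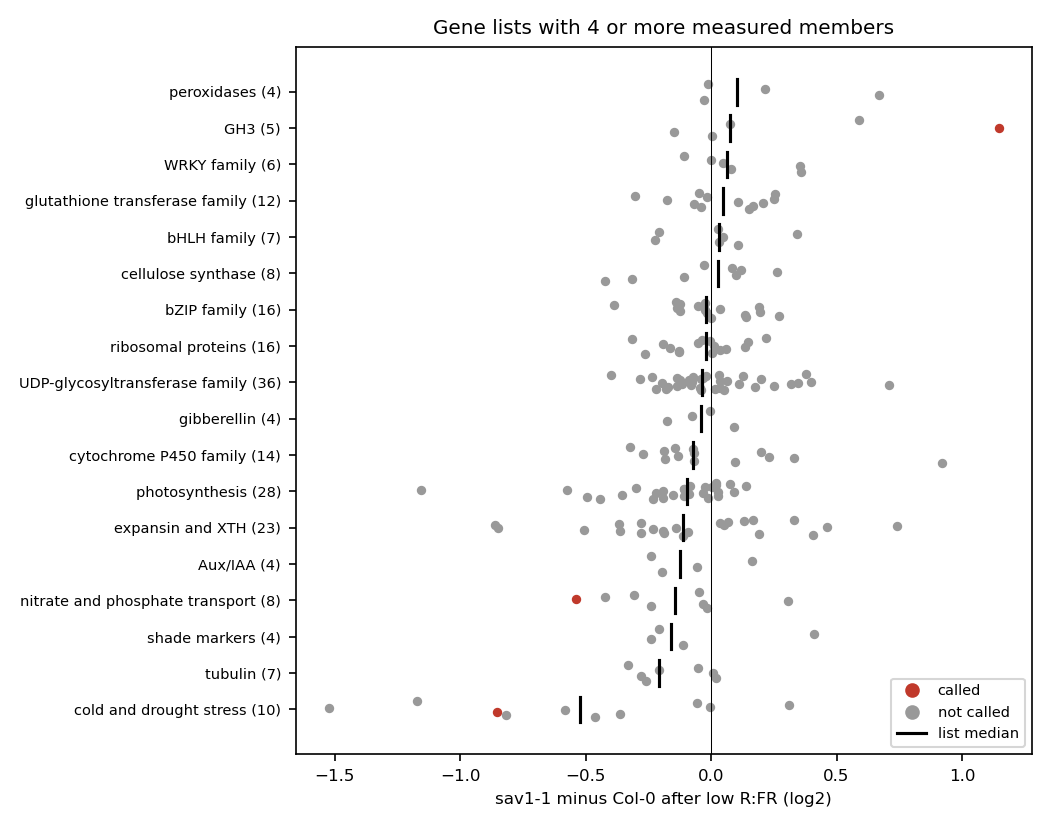
Difference between sav1-1 and Col-0 after low R:FR, on the log2 scale, for every measured member of the 18 lists with at least 4 members (number in brackets). Red points were called, grey points were not, and black bars are list medians. Only GH3.3, AT2G26690 and LEA18 are called, and the median of the cold and drought stress list, at -0.52, is the lowest.

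The other mutant of the study gives a scale for these values, although both mutants are set against the same 3 Col-0 arrays. GH3.3 stood at 6.93, 6.47 and 6.54 in sav3-2 after low R:FR, a difference of -1.77 from Col-0, where sav1-1 was above it. LEA18 had a mean of 5.96 in sav3-2, within the range of the sav1-1 arrays. Other cold and drought stress genes were lower than Col-0 in sav3-2 as well. COR15A stood at -1.23, LEA4-5 at -1.19, AtLEA4-1 at -0.86 and COR47 at -0.32. AT2G44060 and AT2G46140 of that list stood above 0, at 0.11 and 0.01. The lower values of that list were thus not particular to sav1-1. AT5G44440 stood at 4.06, 4.21 and 4.26 in sav3-2, also low as in sav1-1. AT4G14100, at 6.97, 7.12 and 6.88, and AT4G23680, at 9.36, 9.52 and 9.98, lay within or close to the range of the Col-0 arrays in sav3-2.

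Across the series, array medians of the deposited intensities ran from 34.4 to 65.6, and on the 6 arrays compared here from 38.5 to 61.4. Arrays correlated with r from 0.975 to 0.983 within Col-0 and from 0.985 to 0.987 within sav1-1 after low R:FR, over the probe sets tested. No arrays held identical values. The number of arrays limits the precision. The p-values of the fit reported rest on the spread between arrays within groups, pooled over all 6 groups and drawn towards an intensity trend. They do not measure the spread of the 3 samples of a single group alone. These samples are independent biological replicates by the labels.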

How the data were processed

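Gene expression was measured on 18 Affymetrix arrays of Arabidopsis thaliana seedlings. The authors deposited linear intensity values of 22810 probe sets on each array. Per the submitters' processing notes GCRMA was used, with no version and no settings. After the 64 control probe sets were left out, all 18 arrays were quantile normalized, probe sets above 4 on the log2 scale on at least 3 arrays were kept (17125 of 22746), and log2(value + 16) was tested, so that fold changes of dim genes are understated. Limma 3.58.1 (R 4.3.3) was fitted with 1 mean for each of the 6 groups (eBayes with an intensity trend), with Benjamini-Hochberg adjustment over all probe sets, two-sided. The script was tested on simulated data.

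Probe sets were named through the platform annotation, with symbols updated from a table of the TAIR10.1 assembly: 13513 probe sets name 1 gene, 503 several and 8730 none here, and 13508 matched. No build is named for the arrays, so no coordinates are given. Named were the 15 largest called differences in each direction, or all where fewer, with 1 gene name and groups that do not overlap, and members of the lists. Lists took the brightest probe set of a gene. The comparison, the lists and the tests were chosen with earlier results of these data known. Replicate numbers were taken to pair arrays where each of 3 same-numbered pairs deviated from its group means with r above 0.1. That held for sav1-1 and Col-0 in white light (0.222, 0.163 and 0.332), and between the lights within sav1-1 (0.187, 0.108 and 0.272), with the numbers taken from the sample titles. Alternatives covered normalization, pseudocount, filter, weights, the block and arrays left out.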

Additional observations from a re-analysis of the deposited data

How the results depend on the processing

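The settings without the arrays numbered 1 or 2, the count of probe sets with the same sign in both lights and the medians over lists and over the sav3-2 sets were chosen after seeing the data. Each of the 35 probe sets called after low R:FR kept its direction in every alternative in which it was measured, and 5 were called in every fit that left out 1 array. The 35 calls became 23 with no filter on dim probe sets, 94 with array weights, and 5, 1 and 66 without the arrays numbered 1, 2 and 3 of all groups; leaving out 1 array gave 7 to 61. In white light the 16 calls became 7 without normalization between arrays, 113 with array weights, 4 when only the arrays of both groups were fitted, and 0, 0 and 67 without the arrays numbered 1, 2 and 3; leaving out 1 array gave 5 to 45, and the block gave 92. For the change of response, 0 calls became 2 without the arrays numbered 3, and leaving out 1 array gave 0 to 0 calls, with the block at 0 too. The cause was not tested. Without normalization 46 were called after low R:FR, 38 higher and 8 lower, 17 of them among the 35, and the median of all probe sets moved to 0.22. There 7 of the 20 named calls remained, against 19 with median scaling and 20 with array weights. With the replicate number as a block 156 were called after low R:FR. List members that passed with it were WES1, EXPA8, EXLB1, EXLA1, COR15A, COR47, LEA4-5, AtLEA4-1, UGT73B4 and AT3G21670. Same-numbered arrays of these groups correlated in their deviations at 0.214, 0.0963 and 0.335, not all above 0.1, so that the numbers were not taken to pair them; each array correlated best with its own number, a hint from the data and not from the design. Dim genes such as AT3G49960 and AT5G44440 are limited by the lower end of the scale.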
